A study of Mus musculus with 4 samples.

Results

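The genes described here are 10 inhibitors of MAP kinase signalling: the dual-specificity phosphatases Dusp1, Dusp2, Dusp4, Dusp5, Dusp6 and Dusp10, and the Sprouty-domain genes Spry1, Spry2, Spred1 and Spred2. They were chosen by name, with earlier results of these data known, and all 10 had a value among the 19938 genes measured. Expression was measured on 4 Affymetrix gene arrays, 1 for each RNA sample. The 2 lymphoma samples were CD4+ cells from spleens in which lymphoma had developed in C57BL/6 mice with the Tet2 gene trap on both alleles, and the 2 wild type samples were CD4+ splenocytes of C57BL/6 control mice. The trap is a cassette inserted to cut a gene's transcript short, and Tet2 encodes a dioxygenase that acts on methylated cytosine in DNA. Wild type mice had neither the trap nor the lymphoma, so the effects of genotype and of malignancy cannot be told apart. Neither the age of the mice nor the number of animals is given in the sources used here, so p-values measure the spread between these samples, which may be technical.

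MAP kinases carry signals from surface receptors to the nucleus through relays of kinases, of which the ERK, JNK and p38 branches are the best known. In T cells the ERK branch is started by the T cell receptor through Ras, and active ERK induces its own inhibitors. Dual-specificity phosphatases remove phosphate from both the threonine and the tyrosine that activate a MAP kinase, some in the nucleus and some in the cytoplasm. Sprouty and Spred proteins act further up, between the receptor, Ras and Raf. Dusp4, Dusp6 and the Sprouty genes are widely used as transcript markers of ERK activity.

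Promoter sequences are shown for 4 members: Spred1, which rose in lymphoma, Dusp2 and Dusp5, whose lymphoma values lay below wild type, and Dusp1, the most variable member in wild type cells. The table of promoters matched every member but Dusp4. The sequences are RefSeq promoters of the build GRCm38.p6, written 5′ to 3′ on the gene's strand, with positions counted back from the transcript start at -1.
Dusp5: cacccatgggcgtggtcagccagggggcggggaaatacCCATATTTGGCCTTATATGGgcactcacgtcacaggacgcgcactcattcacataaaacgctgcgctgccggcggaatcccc
Dusp1: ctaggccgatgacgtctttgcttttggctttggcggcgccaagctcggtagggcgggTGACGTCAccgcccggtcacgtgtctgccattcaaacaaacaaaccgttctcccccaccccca
Dusp2: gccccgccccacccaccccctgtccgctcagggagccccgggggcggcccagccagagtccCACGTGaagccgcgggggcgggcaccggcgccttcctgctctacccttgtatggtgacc
Spred1: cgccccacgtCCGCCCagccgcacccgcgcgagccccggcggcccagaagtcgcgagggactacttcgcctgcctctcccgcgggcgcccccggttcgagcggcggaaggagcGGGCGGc

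The Dusp5 stretch (chr19:53529025-53529144, plus strand) ends at the base before the start, and its capitals mark a pair of adjoining CArG boxes at -82 to -73 and -72 to -63. The CArG box is the letters bound by serum response factor, a target of ERK signalling. Such a box was found in 1.47% of 32851 mouse promoters over the 250 bases before the start, read on both strands, and in Dusp5 alone among the 9 members with a promoter. Capitals in the Dusp1 stretch (chr17:26508553-26508672, minus strand, -200 to -81) mark the cAMP response element TGACGTCA at -143 to -136, which 1.55% of the promoters held. Dusp1 was the only member that held it. Capitals in the Dusp2 stretch (chr2:127335989-127336108, plus strand, -170 to -51) mark the E-box CACGTG at -109 to -104, found in 6.02% of all promoters and in 2 of the 9 members, Dusp1 and Dusp2. The Spred1 stretch (chr2:117120951-117121070, plus strand, -120 to -1) held none of those 3 motifs, and its capitals mark GC boxes, GGGCGG or its complement, at -110 to -105 and -7 to -2. GC boxes are common, in 32.7% of all promoters and in 7 of the 9. The ETS site CCGGAAG and the AP-1 site TGANTCA were in none of the 9, against 6.91% and 6.75% of all promoters. In Dusp1 GC boxes at -150 to -145 and -135 to -130 lie on either side of the cAMP response element without sharing a base with it. A match describes the letters of the window and shows no binding.

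Of the 10 members, Dusp4 and Spred1 rose in lymphoma, none fell and 8 did not pass in limma at a Benjamini-Hochberg adjusted p under 0.05 (5 had an unadjusted p under 0.05, 4 of them higher and 1 lower). Over all 19938 genes 4.27% passed, 1.82% higher and 2.46% lower. Before adjustment, 15.6% of all genes had a limma p below 0.05. That share is the one to set beside such counts, here and for the lists below. The log2 difference, lymphoma minus wild type, was positive for 8 members and negative for 2, with a median of 0.42 against -0.04 over all genes. When each array was expressed relative to its mean log2 value of Cd3d, Cd3e and Cd3g, 5 were positive and 5 negative. Both lymphoma arrays lay above both wild type arrays for 5 members, where 20.6% of all genes did so, and below for 2, where 23.5% did. Groups thus did not overlap for 7 members, and for 44.1% of all genes. The 3 remaining members, Dusp1, Dusp10 and Spry2, had overlapping groups. An exact permutation test of 2 against 2 arrays cannot go below a two-sided p of 0.333, so the p-values given are those of the fit across all genes.

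**Figure D1:**
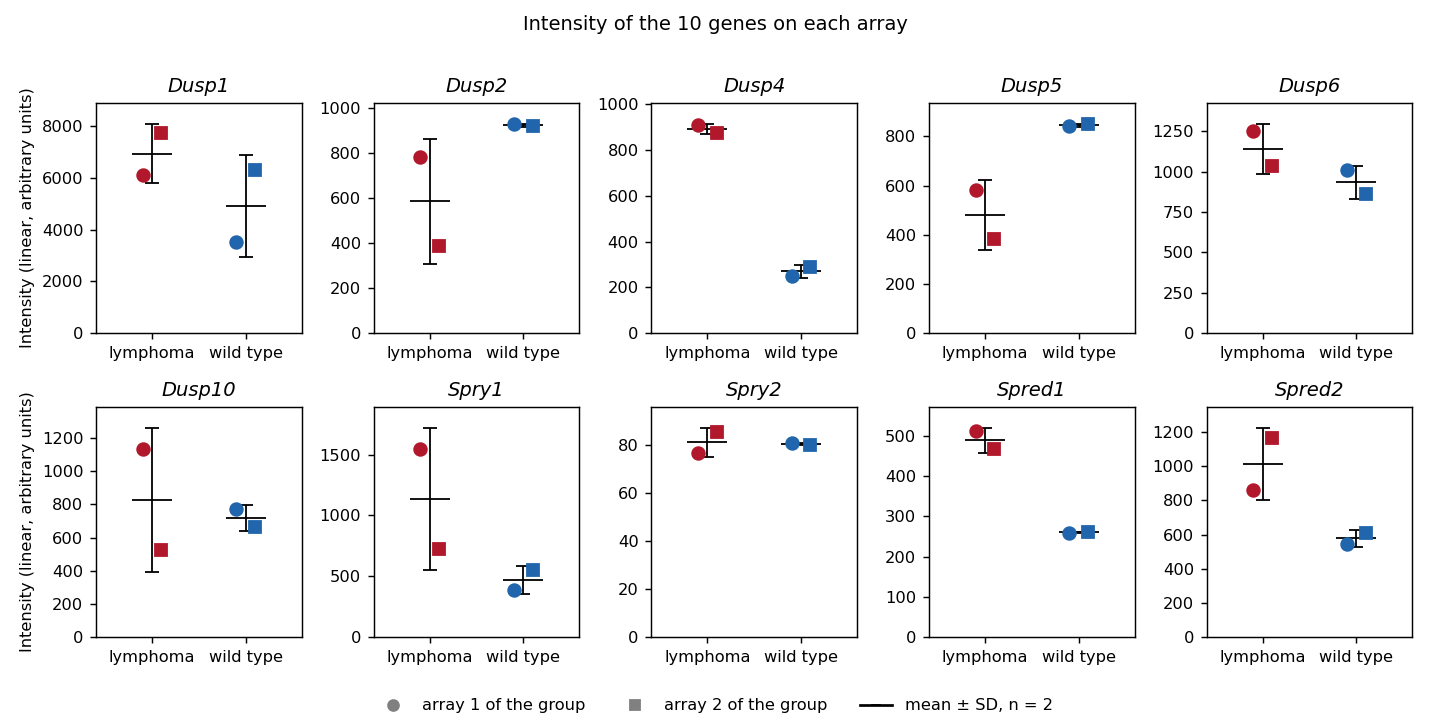
Linear intensity (arbitrary units, axes from 0, a scale of its own for each gene) of the 10 genes on the lymphoma (left, red) and wild type (right, blue) arrays, with the mean and SD of each pair as black lines. Dusp4 and Spred1 show tight pairs far apart, while the lymphoma pairs of Dusp2, Dusp10 and Spry1 are spread widely.

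The arrays had similar overall signal, with medians over 35556 probe sets of 130 to 142, and log2 values correlated at 0.95 to 0.98 between arrays (across probe sets, which are no independent replicates). Tet2 had intensities of 596 and 399 in lymphoma, against 980 and 1016 in wild type, and did not pass (log2 difference -1.03, limma adjusted p = 0.077). Cd4, the surface marker used to collect the cells, had 5839 and 7134 in lymphoma, against 4552 and 5153 in wild type. Cd3d, Cd3e and Cd3g were on average 0.48 log2 units higher in lymphoma, and none of the 8 measured T cell markers passed in limma (at an unadjusted p under 0.05, 4 were higher and 1 was lower). Of these 8, 5 had a positive log2 difference and 3 a negative one, among them Cd5 (-0.92) and Cd247 (-0.21). The Cd3 scaling thus rests on markers with positive differences, and scaling on the other T cell markers was not tried. B cell, macrophage and dendritic cell markers were lower in lymphoma. Of the B cell markers 7 of 8 fell, with summed intensities of 2841 and 2633 in lymphoma against 18742 and 12514 in wild type. Of the macrophage and monocyte markers 7 of 10 fell, with sums of 3143 and 4528 in lymphoma against 11514 and 11476 in wild type, and of the dendritic cell markers 7 of 8 fell, with sums of 765 and 782 in lymphoma against 5244 and 4368 in wild type. Of the 6 plasma cell markers 2 fell, Jchain and Mzb1, and 4 did not pass. Neither of the 2 CD8 T cell markers passed, and for both the lymphoma arrays lay below the wild type arrays. None of the granulocyte, natural killer, erythroid and platelet markers passed in limma (at an unadjusted p under 0.05, 2 granulocyte markers were higher, and 2 natural killer markers were higher and 1 lower). The summed intensities were 660 and 644 in lymphoma against 522 and 571 in wild type for granulocytes, and 1178 and 1218 in lymphoma against 813 and 686 in wild type for natural killer cells. No marker was listed at 0 on these arrays. Fewer cells of a type and less RNA per cell cannot be told apart here, and the part of these markers in the results that follow was not tested except by the Cd3 scaling given beside them.

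Dusp4, a nuclear phosphatase that acts on ERK, JNK and p38, was the member with the largest difference. Its intensity was 906 and 875 in lymphoma, against 251 and 290 in wild type. Both pairs were tight and the groups lay far apart. On the log2 scale the means were 9.80 ± 0.04 in lymphoma and 8.07 ± 0.15 in wild type (SD, n = 2 each), a difference of 1.72 (SE 0.18, 3.30-fold higher, limma adjusted p = 0.0075). Relative to the Cd3 genes the difference was 1.24 (limma adjusted p = 0.0025). Leaving out wild type array 1 ended the call (1.62, limma adjusted p = 0.12), as did leaving out wild type array 2 (1.83, limma adjusted p = 0.084). In both fits the lone wild type array is assumed to vary like the lymphoma pair, and no gene of the whole series passed.

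Dusp1, a nuclear phosphatase induced within minutes by stress and mitogens, had the highest spread among wild type arrays of the 10 members. Its intensity was 6116 and 7741 in lymphoma, against 3513 and 6301 in wild type. Lymphoma array 1 lay between the wild type values, so the groups overlapped. The log2 difference of 0.55 had a 95% interval of -0.15 to 1.25 (limma adjusted p = 0.47), and it was 0.13 when wild type array 1 was omitted and 0.97 when wild type array 2 was. Relative to the Cd3 genes the difference was 0.069.

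Dusp2 and Dusp5, a pair of nuclear phosphatases that are induced early in activated lymphocytes, had lower values on both lymphoma arrays. Dusp5, which acts on ERK and also anchors it in the nucleus, had intensities of 583 and 382 in lymphoma, against 841 and 849 in wild type. Its wild type arrays were nearly equal, and lymphoma array 2 was the lowest. The log2 difference was -0.84 (SE 0.24, 1.79-fold lower, 95% interval -1.43 to -0.25, limma adjusted p = 0.14), so it did not pass.

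Dusp2 had intensities of 782 and 389 in lymphoma, against 929 and 920 in wild type. Lymphoma array 1 lay close under the wild type pair and lymphoma array 2 far below it. The log2 difference was -0.74 (SE 0.33, 95% interval -1.55 to 0.06, limma adjusted p = 0.36). Both genes passed when lymphoma array 1 was left out, Dusp5 at -1.15 (limma adjusted p = 0.0056) and Dusp2 at -1.25 (limma adjusted p = 0.0027). In that fit 1 array stands for lymphoma. Without lymphoma array 2 they differed by -0.54 and -0.24. Relative to the Cd3 genes both were called lower with all 4 arrays, Dusp5 at -1.32 (limma adjusted p = 0.0039) and Dusp2 at -1.22 (limma adjusted p = 0.018). That scaling puts the median of all genes at -0.52 instead of -0.04, and by construction it leaves each gene's distance to that median as it was, at -0.80 for Dusp5 and -0.71 for Dusp2. For Dusp4 this distance was 1.76 and for Spred1 0.95.

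Dusp6, the cytoplasmic phosphatase that is selective for ERK, had intensities of 1250 and 1032 in lymphoma, against 1006 and 862 in wild type. The groups did not overlap, but lymphoma array 2 exceeded wild type array 1 by little. The log2 difference of 0.29 had a 95% interval of -0.19 to 0.76 (limma adjusted p = 0.61), and relative to the Cd3 genes it was -0.19. Dusp10, which acts on JNK and p38, had intensities of 1134 and 522 in lymphoma, against 773 and 664 in wild type. The lymphoma arrays lay on either side of the wild type pair. The log2 difference was 0.10 (95% interval -0.78 to 0.99, limma adjusted p = 0.95), with 0.66 from lymphoma array 1 alone and -0.46 from lymphoma array 2 alone.

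Spred1, an inhibitor of Ras that brings the Ras GTPase-activating protein neurofibromin to the membrane, rose in lymphoma. Its intensity was 511 and 467 in lymphoma, against 260 and 261 in wild type. Both pairs were tight and did not overlap. The log2 means were 8.93 ± 0.09 in lymphoma and 8.02 ± 0.01 in wild type (SD, n = 2 each), a difference of 0.91 (SE 0.18, 1.87-fold higher, limma adjusted p = 0.045). The call lay close to the threshold and was lost under quantile normalization (0.81, limma adjusted p = 0.057), relative to the Cd3 genes (0.43, limma adjusted p = 0.15), and with 1 wild type array omitted (limma adjusted p = 0.27 in both such fits).

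Spred2, a related inhibitor, is the one member with a pair of probe sets. The brighter had intensities of 863 and 1162 in lymphoma, against 543 and 611 in wild type, and the groups did not overlap. The log2 difference was 0.80 (SE 0.21, 1.74-fold higher, 95% interval 0.28 to 1.32, limma adjusted p = 0.12). The other probe set had 357 and 588 in lymphoma, against 250 and 236 in wild type, a difference of 0.92 in the same direction. Without lymphoma array 1 the brighter probe set differed by 1.01, in a fit where 1 array stands for lymphoma.

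Spry1, a Sprouty gene known to be induced by T cell receptor signalling, had intensities of 1549 and 722 in lymphoma, against 388 and 548 in wild type. Both lymphoma arrays lay above both wild type arrays, and lymphoma array 1 stood well above lymphoma array 2. The log2 difference was 1.20 (SE 0.38, 2.29-fold higher, 95% interval 0.27 to 2.12, limma adjusted p = 0.18), so the second largest difference among the members did not pass. It was 1.75 without lymphoma array 2 (limma adjusted p = 0.00014) and 0.65 without lymphoma array 1 (limma adjusted p = 0.22). Spry2, another inhibitor of receptor tyrosine kinase signalling, had intensities of 76.9 and 85.5 in lymphoma, against 80.7 and 80.1 in wild type. All 4 values lay below the median probe set of their arrays, and the log2 difference of 0.01 had a 95% interval of -0.40 to 0.42 (limma adjusted p = 0.99).

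**Figure D2:**
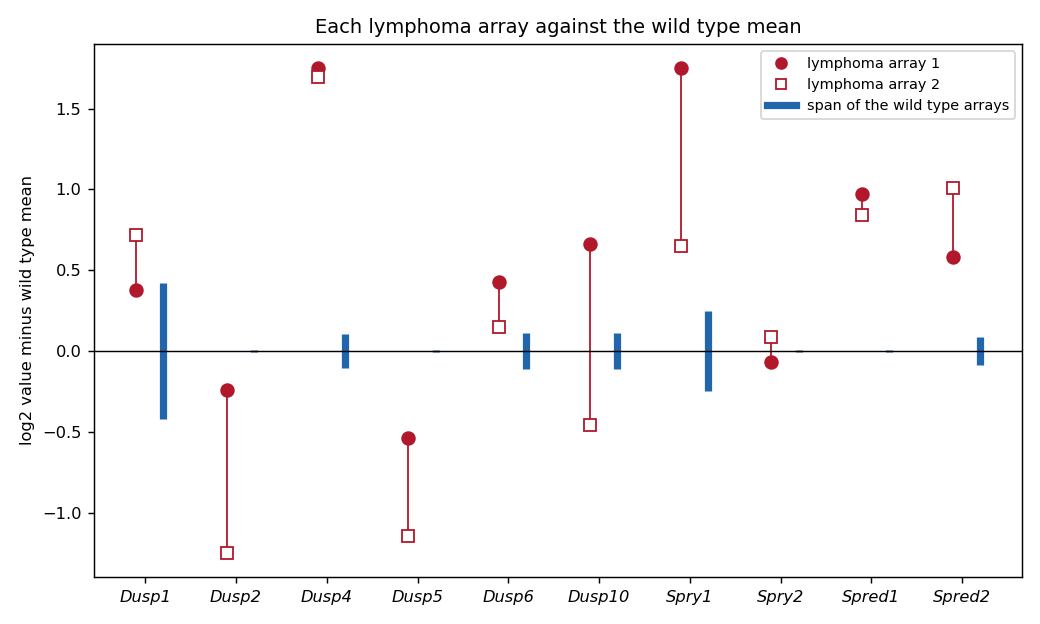
Log2 value of each lymphoma array (red, filled circle array 1, open square array 2) minus the mean of the wild type arrays, with the span of the wild type arrays as a blue bar. Dusp4, Dusp6, Spry1, Spred1 and Spred2 sit above the wild type span on both lymphoma arrays, Dusp6 by little on array 2. Dusp2 and Dusp5 sit below 0 on both and lowest on array 2, and Dusp10 lies on both sides of 0.

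The lymphoma samples differed from each other in several members. Spry1 was 2.14-fold, Dusp10 2.17-fold and Dusp2 2.01-fold higher on lymphoma array 1 than on lymphoma array 2. These 3 of the 10 members differed by over 1 log2 unit between the lymphoma arrays, where 3.91% of all genes did so. No member differed that much between the wild type arrays, where Dusp1 differed most, by -0.84 log2 units (array 1 minus array 2). Over all genes the median absolute log2 difference was 0.21 between the lymphoma arrays and 0.22 between the wild type arrays. For 8 members the lymphoma arrays differed more than the wild type arrays, as for 49.9% of all genes, and the other two were Dusp1 and Dusp4. In all, 7 members were higher on lymphoma array 1, as were 56.4% of all genes. Spred2, Dusp1 and Spry2 were 1.35-fold, 1.27-fold and 1.11-fold higher on lymphoma array 2. With 1 sample on each side these are values with no test.

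Dusp16 rose and Dusp7 fell among the relatives of these phosphatases. Of the 7 other MAP kinase phosphatases, 1 rose, 1 fell and 5 did not pass. Dusp16, which acts mainly on JNK, had intensities of 1055 and 846 in lymphoma, against 391 and 415 in wild type (log2 difference 1.23, SE 0.20, limma adjusted p = 0.024). Dusp7, the cytoplasmic relative of Dusp6 that also acts on ERK, had 621 and 973 in lymphoma, against 2168 and 1830 in wild type (log2 difference -1.36, SE 0.26, limma adjusted p = 0.041). The groups did not overlap for either gene. Of the other Sprouty and Spred genes none of 3 passed in limma (1 had an unadjusted p under 0.05). The log2 difference was 0.56 for Spred3, with both lymphoma arrays above both wild type arrays, and -0.23 for Spry3.

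Of the 10 atypical dual-specificity phosphatases, small enzymes that lack the MAP kinase binding domain, 2 rose, none fell and 8 did not pass. Dusp14, known in mice as an inhibitor of T cell receptor signalling, had intensities of 1799 and 1834 in lymphoma, against 463 and 453 in wild type. That is a log2 difference of 1.99 (SE 0.17, 3.97-fold higher, limma adjusted p = 0.0043), larger than that of any member, with tight pairs. Relative to the Cd3 genes it was also called (1.51, limma adjusted p = 0.00026). Dusp19, which acts in the JNK pathway, had 632 and 767 in lymphoma, against 360 and 299 in wild type (log2 difference 1.08, limma adjusted p = 0.041). The call on Dusp19 was lost relative to the Cd3 genes (limma adjusted p = 0.074).

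**Figure D3:**
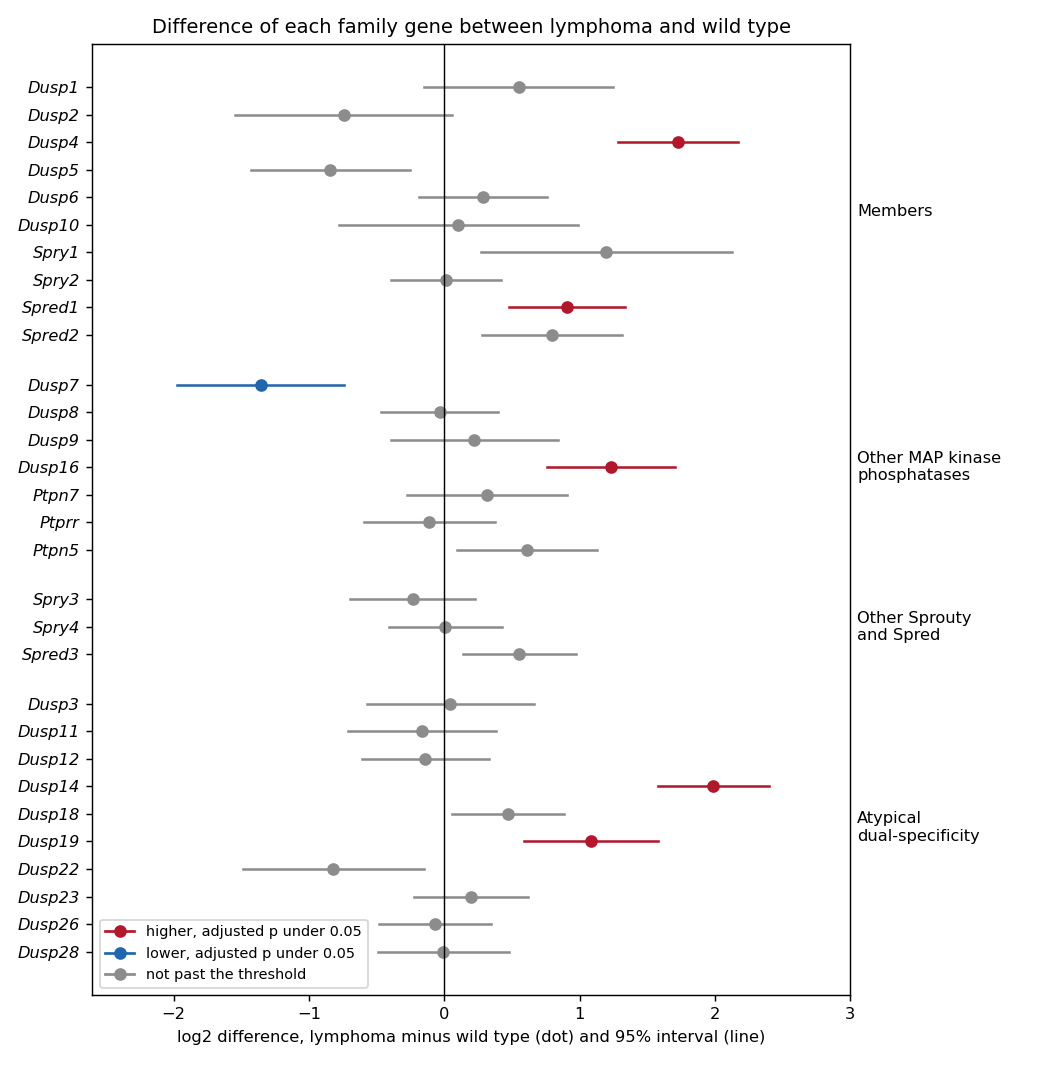
Log2 difference between lymphoma and wild type (dot) with its 95% interval from limma (line) for the 10 genes and for 20 relatives in 3 families. Red marks genes called higher, blue genes called lower and grey genes that did not pass, and Dusp4, Dusp14, Dusp16, Dusp19 and Spred1 are the red ones.

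The kinases that these inhibitors act on gave no call. Of 8 measured MAP kinases none passed in limma (at an unadjusted p under 0.05, 1 was lower and none higher), with a median log2 difference of -0.12. The p38 kinase Mapk14 had intensities of 746 and 967 in lymphoma, against 1493 and 1344 in wild type (log2 difference -0.74, limma adjusted p = 0.12). The JNK kinase Mapk10 had 90.4 and 279 in lymphoma, against 85.5 and 66.7 in wild type (log2 difference 1.07, limma adjusted p = 0.39), and its value on lymphoma array 1 lay close to the wild type values. Of the 11 measured kinases upstream of JNK and p38 none passed in limma either (at an unadjusted p under 0.05, 1 was higher and 3 were lower). The p38 activators Map2k6 and Map2k3 had the largest differences there, -1.32 (limma adjusted p = 0.077) and 1.06 (limma adjusted p = 0.14).

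Of 19 measured genes of the Ras to ERK cascade, the scaffold Ksr1 rose, the exchange factors Rasgrp1, Rasgrp2 and Rasgrp3 fell, and 15 did not pass, with a median log2 difference of -0.04. Rasgrp1, the exchange factor that loads Ras after T cell receptor signalling, had intensities of 1560 and 1388 in lymphoma, against 3242 and 2946 in wild type (log2 difference -1.07, SE 0.17, limma adjusted p = 0.023). Rasgrp2, an exchange factor for Rap, had 155 and 232 in lymphoma, against 1368 and 1031 in wild type (log2 difference -2.65, limma adjusted p = 0.0065). Rasgrp3, known from B cells, had 301 and 93.6 in lymphoma, against 1180 and 935 in wild type (log2 difference -2.65, limma adjusted p = 0.046, with 0.15 under a robust variance trend and 0.052 under none). B cell markers fell on the same arrays (7 of 8), and their part in these falls was not tested. Ksr1, a scaffold that holds Raf, MEK and ERK together, rose, with 1706 and 1683 in lymphoma, against 703 and 763 in wild type (log2 difference 1.21, SE 0.17, limma adjusted p = 0.016).

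Of 9 measured Ras GTPase-activating proteins, which switch Ras off, 2 fell, none rose and 7 did not pass. Rasa3 had intensities of 952 and 1178 in lymphoma, against 2377 and 2401 in wild type (log2 difference -1.17, SE 0.18, limma adjusted p = 0.023). Rasa4 had 133 and 131 in lymphoma, against 295 and 272 in wild type (log2 difference -1.10, limma adjusted p = 0.022). Nf1, which encodes neurofibromin, the partner of Spred1, was chosen for mention after its values were seen. It had 785 and 853 in lymphoma, against 463 and 513 in wild type, with no overlap and a log2 difference of 0.75 that did not pass (limma adjusted p = 0.087).

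Of the 14 other feedback inhibitors of receptor and Ras signalling, 1 rose, 1 fell and 12 did not pass. Rgs16, which shortens G protein signals, had intensities of 2451 and 2525 in lymphoma, against 997 and 1409 in wild type (log2 difference 1.07, limma adjusted p = 0.0495). The call on Rgs16 was lost under quantile normalization (limma adjusted p = 0.10), without the variance trend (0.061), with a pseudocount of 16 (0.052) and relative to the Cd3 genes (0.085). Dok3, an adaptor that dampens signalling in B cells and myeloid cells, had 266 and 205 in lymphoma, against 817 and 583 in wild type (log2 difference -1.56, limma adjusted p = 0.023). Markers of those cells fell on the same arrays, and their part was not tested.

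Genes commonly read as ERK output gave a call in each direction. Of 20, 1 rose, 1 fell and 18 did not pass, with a median log2 difference of -0.07. Fosl2, an AP-1 subunit, had intensities of 773 and 607 in lymphoma, against 246 and 336 in wild type (log2 difference 1.25, limma adjusted p = 0.042). The call on Fosl2 was lost under quantile normalization (limma adjusted p = 0.074) and relative to the Cd3 genes (0.062). Ccnd1, cyclin D of the G1 phase, had 166 and 198 in lymphoma, against 1704 and 1481 in wild type (log2 difference -3.13, SE 0.20, 8.77-fold lower, limma adjusted p = 0.0021). B cell, macrophage and dendritic cell markers fell on the same arrays. Their part in the falls of Ccnd1, Dusp7, Rasa3 and Rasa4 was not tested. Fos and Egr1, immediate targets of ERK that were chosen for mention after their values were seen, had log2 differences of -0.11 and -0.04 with overlapping groups. Over the 9 lists beside the members, 6 of 101 measured genes rose and 8 fell, with a median log2 difference of -0.08.

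**Figure D4:**
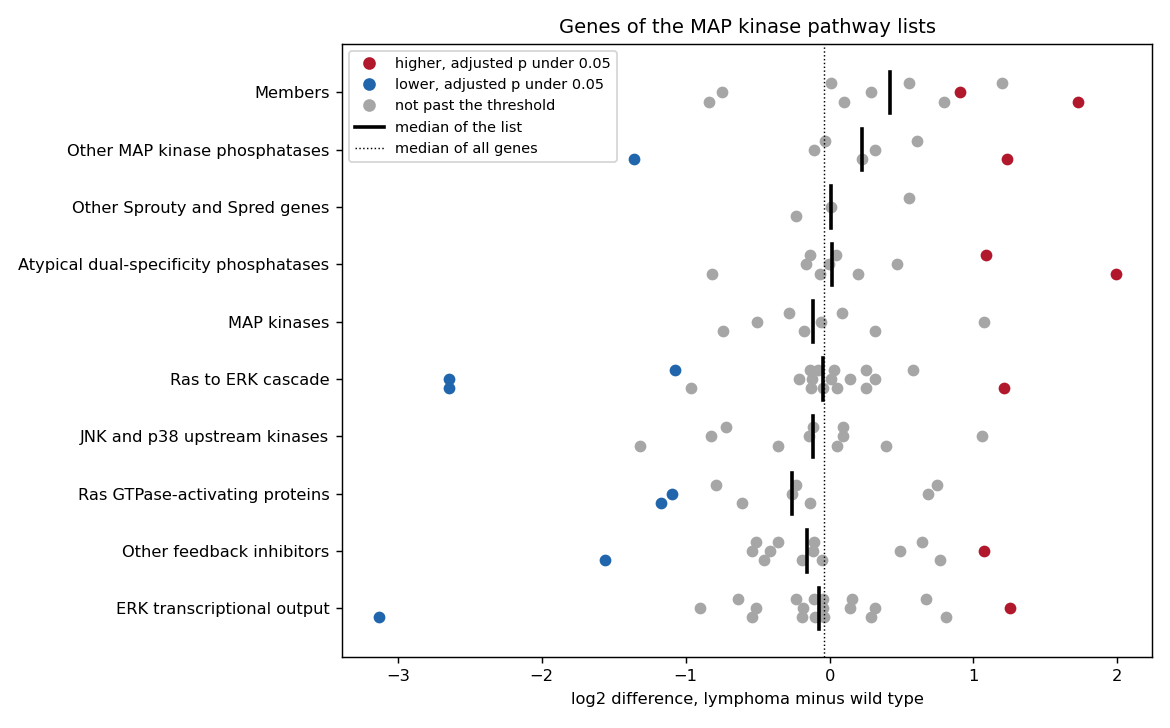
Log2 difference between lymphoma and wild type of every measured gene in the 10 members and 9 pathway lists, coloured by call as red for higher and blue for lower, with each list's median (black bar) and the median of all genes (dotted line at -0.04). The members' median of 0.42 lies to the right of the dotted line, and single genes such as Ccnd1, Rasgrp2 and Rasgrp3 lie far to the left.

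Across alternative settings, 5 members kept a positive difference and 2 a negative one in every fit run, namely Dusp1, Dusp4, Spry1, Spred1 and Spred2, and Dusp2 and Dusp5. For groups that do not overlap, leaving out 1 array cannot turn the sign. The filters, the variance models and the replicate block leave each difference as it was, so they cannot turn it either. Averaging probe sets changes the difference of Spred2 alone among the members. Dusp4 lay between 1.24 and 1.83 over 14 alternatives. Spry1 lay between 0.65 and 1.75, and Dusp10, which had the widest range of the 10, between -0.46 and 0.66.

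**Figure D5:**
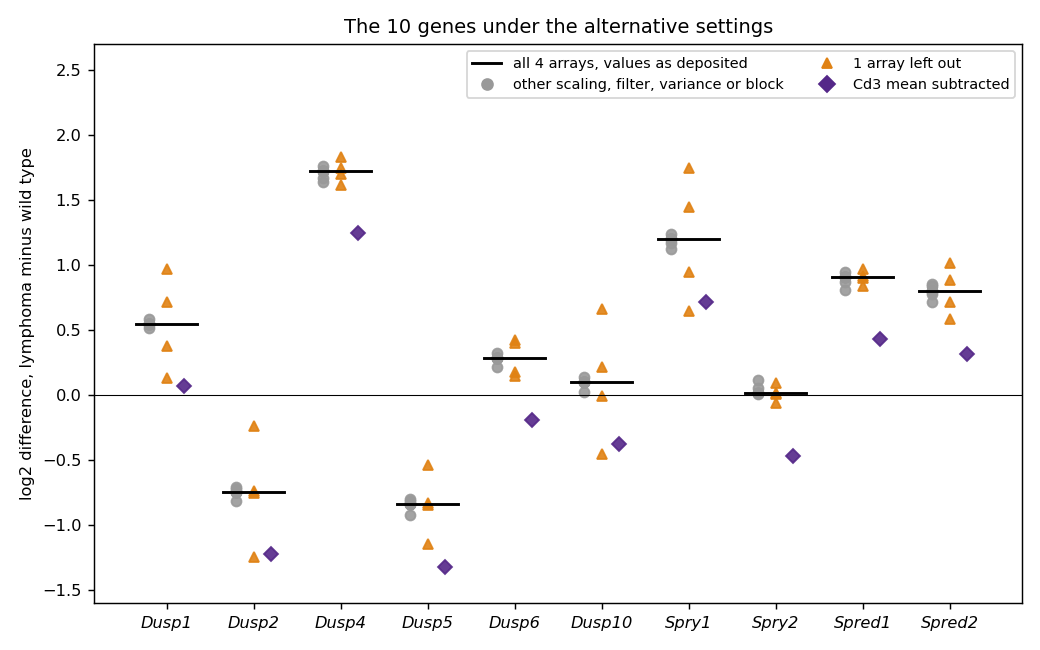
Log2 difference of each of the 10 genes with all 4 arrays (black line), under other scalings, filters, variance models or the replicate block (grey circles), with 1 array left out (orange triangles) and relative to the Cd3 genes (purple diamonds). Dusp4 stays at 1.24 or higher throughout, while Dusp6, Dusp10 and Spry2 cross 0.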

How the data were processed

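The authors' deposited values are intensity values on a linear scale, 1 per probe set and array, made with Affymetrix Expression Console per the submitters' processing notes. Its version was not given in the sources used here, nor were the summarisation, the background correction and the normalization. Per the labels' protocols, CD4+ cells were collected from lysed spleen suspensions with biotinylated antibody on magnetic columns, which can hold other cells, and RNA was labelled with biotin. No detection calls were used, and the differences of dim genes can be too small.

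The log2 of each value was taken without a pseudocount. Probe sets with 1 gene symbol in the GEO platform annotation were kept (21789 of 35556; 1621 had several and 12146 were not listed), and the one with the highest mean over the arrays stood for its gene. A gene without such a probe set was not analysed here. Lymphoma minus wild type was fitted with limma 3.58.1 under R 4.3.3, using a variance trend, 2 residual and 4.24 prior degrees of freedom, and Benjamini-Hochberg adjustment over 19938 genes. Intervals are at 95%, and a call is an adjusted p under 0.05. The number of arrays limits the precision. The procedure was tested on simulated data. It called 44% of 100 genes changed by 1 log2 unit, 97% of 100 changed by 2, and 13 unchanged genes. The members, lists and named genes (the members, up to 4 called genes of each list or its 2 largest differences, Tet2, Cd3 and Cd4 genes) were chosen with earlier results of these data known. Alternatives were quantile normalization, median subtraction, filters, variance models, averaged probe sets, a pseudocount of 16, the replicate block, a threshold of 0.10 and leaving out each array; the Cd3 scaling was chosen after seeing the data. Promoters are RefSeq windows of GRCm38.p6, of which 9 of 10 members matched. Figures were drawn with matplotlib 3.10.9.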

Additional observations from a re-analysis of the deposited data

How the results depend on the processing

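With all arrays 852 genes were called, among them 2 of the members and 14 of the other pathway genes. With each array left out in turn in limma, these counts ranged from 0 to 1852 for all genes, from 0 to 5 for the members and from 0 to 23 for the pathway genes. The 0 stands for the fits without wild type array 1 or 2, in which 2308 and 2049 genes had an unadjusted p under 0.05, 2 and 5 of them members, and 29 and 28 of them pathway genes. The 5 members were called without lymphoma array 1, a fit that called 1732 genes. A threshold of 0.10 gave 1357 genes. Under quantile normalization 1 member was called, Dusp4. The titles share replicate numbers without saying what they mean, and deviations of same-numbered arrays correlated at 0.23 across genes. With the replicate number as a block, 1 member was called, Dusp4, and Spred1 had a limma adjusted p of 0.057. That block called 11 pathway genes, and the calls on Dusp7 (0.053), Dusp19 (0.059) and Fosl2 (0.060) were lost. Relative to the Cd3 genes, a scaling chosen after seeing the data, 2864 genes and 31 pathway genes were called. Of these 2864, 9.60% were higher, against 42.5% of the calls in the values as deposited. Signs turned for Dusp6 (-0.19), Dusp10 (-0.38) and Spry2 (-0.47) relative to the Cd3 genes, for Dusp10 without lymphoma array 1 (-0.46) or wild type array 2 (-0.0058), and for Spry2 without lymphoma array 2 (-0.065). With 1 array left out, Dusp10 ranged up to 0.66 and Spry2 up to 0.089. Filters on dim genes left out Spry2. Of 138 member values under alternatives, 119 kept direction and side of the threshold, 7 lost and 6 gained a call, and 6 turned sign. Under the filters, the variance models and the replicate block only the p-value can move, so direction is kept there by construction.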
